A study of Mus musculus with 6 samples.

Results

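The galectin group comprised 5 of the 55401 genes in a table of RNA read counts from mouse T cells, namely Lgals1, Lgals3, Lgals3bp, Lgals8 and Lgals9, found by their gene symbols. They were chosen by their symbol with the difference between the 2 groups of libraries already known, so their differences are given as a description with no test. One group of 3 libraries came from T cells cultured with supernatant of untreated macrophages (control), and the other 3 came from T cells cultured with supernatant of macrophages activated with NFL, the light chain of the neurofilaments that fill nerve fibres. By the design text, the T cells were selected from spleen with CD8a beads, and the macrophages were grown from splenic CD11b+ monocytes with 50 ng/mL M-CSF for 7 days. Macrophages of the NFL group received 5 μg/mL NF-L prepared from lysed sciatic nerve for 24 h, and both filtered supernatants were used at 50% in medium with 2% serum. The methods of the study name a purchased NFL protein for treating mice and lower NFL doses for other cultures, so the preparation behind these libraries is given only as the design text has it. The labels of the libraries give neither the strain, age or sex of the mice nor the time that T cells spent in the supernatant. They also do not say whether libraries of 1 group came from separate animals or cultures, so p-values measure the spread between these libraries, which may be technical.

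Galectins are lectins that bind β-galactosides on glycoproteins and glycolipids. They are made in the cytosol and leave the cell without a classical signal peptide, and outside the cell they cross-link surface glycoproteins, while inside it they also bind glycans exposed on damaged endosomes and lysosomes. Galectin-1 (Lgals1) is a small dimer known for promoting death of activated T cells, galectin-3 (Lgals3) is the only chimeric galectin and is known for restraining the T-cell receptor, and galectin-8 (Lgals8) and galectin-9 (Lgals9) carry a pair of different carbohydrate-binding domains in 1 chain. Lgals3bp is no galectin but a secreted, heavily glycosylated protein that galectin-3 binds.

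The libraries held 15843045 to 24639756 counts, so 3 counts corresponded to 0.122 to 0.189 CPM (counts scaled to the library total), and values below that cannot be told from 0. The labelled cell type was compared with its markers. Thy1 (1672 ± 51.2 CPM in control, SD, n = 3) and Trbc1 (347 ± 5.33 CPM) were abundant, Cd3e, a subunit of the T-cell receptor complex, stood at 61.1 ± 4.24 CPM, and Cd4 stood at 25.1 ± 1.17 CPM. Cd8a, the target of the bead selection, was at 4.004 ± 0.698 CPM in control and 3.70 ± 0.489 CPM in NFL libraries, Cd8b1 was at 1.43 ± 0.188 CPM in control, and Cd2 and Cd5 had 0 counts in all 6 libraries. Other T-cell receptor genes were mixed in control. Trbc2 at 58.1 ± 1.91 and Cd247 at 45.5 ± 1.42 CPM stood near Cd3e. By contrast, Cd3g was at 8.04 ± 0.930, Cd3d at 3.63 ± 1.13 and Trac at 1.89 ± 0.519 CPM. Ptprc (CD45), a gene of all leukocytes, had 3 to 9 reads per library. The values therefore go against the label for some defining markers of leukocytes, T cells and CD8+ T cells, and the cells are called labelled T cells here. In bulk RNA, fewer cells of a type and less RNA per cell cannot be told apart.

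The promoters of Lgals3 and Lgals9 are shown because these were the members with the largest fold changes. RefSeq promoter sequences (GRCm38.p6) matched 4 of the 5 members, all but Lgals1. The windows run 5′ to 3′ on the gene's own strand from 170 bases before the RefSeq start to the first 30 bases of the transcript, and the capitals mark every match to a κB-type motif (GGGNNNNNCC) or an ISRE-type motif (GAAANNGAAA), searched on both strands.
Lgals3, chr14:47373690-47373889, plus strand: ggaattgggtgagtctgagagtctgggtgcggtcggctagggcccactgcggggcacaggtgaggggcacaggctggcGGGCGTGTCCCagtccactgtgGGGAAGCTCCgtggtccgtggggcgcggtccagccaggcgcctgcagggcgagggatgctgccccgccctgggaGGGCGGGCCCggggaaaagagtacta
Lgals9, chr11:78984895-78985094, minus strand: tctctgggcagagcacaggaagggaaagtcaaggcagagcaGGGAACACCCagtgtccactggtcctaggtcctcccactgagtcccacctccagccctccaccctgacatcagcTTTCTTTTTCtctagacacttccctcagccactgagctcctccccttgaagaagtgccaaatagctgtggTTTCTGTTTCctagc
All capitals in the Lgals3 window are κB-type. They lie at positions -92 to -82 from the start (a pair of matches that overlap), -70 to -61 and 5 to 14, the last sharing bases with a GC box (GGGCGG) at 5 to 10. A second GC box lies at -7 to -2 on the other strand, and 71.0% of the window's bases are G or C. In the Lgals9 window the first capitals, at -129 to -120, are κB-type, and the ISRE-type motif stands on the opposite strand at -55 to -46 and at 16 to 25. The Lgals3bp window held none of the motifs searched, and the AP-1 motif TGANTCA was in neither window shown. The Lgals8 sequence starts inside the annotated gene, away from its outermost RefSeq start, and is not described. The Lgals3 window sits at the RefSeq start, 47373860, which also lies inside the longer annotated gene that begins at 47367751. Among 32851 promoters cut to the same length, 41.8% held the κB-type motif, 2.17% the ISRE-type, 32.0% the GC box and 5.49% the AP-1 motif. These matches describe letters, not bound sites.

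Lgals3 (ENSMUSG00000050335.17) lies on chr14:47367751-47386160 of GRCm38, plus strand. Its level was 184, 187 and 182 CPM in control replicates 1 to 3 and 126, 133 and 130.2 CPM in NFL replicates 1 to 3. Every NFL library was below every control library, and the gap between the groups was wider than the range within either. The means were 184 ± 2.67 CPM in control and 129.8 ± 3.71 CPM in NFL libraries (SD, n = 3), the NFL mean being 70.4% of control. The log2 fold change was -0.50 (SE 0.036), and with any 1 library left out it lay between -0.52 and -0.48.

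Lgals9 (ENSMUSG00000001123.15; chr11:78962974-78984946, minus strand) was the least abundant member, with 181, 100 and 150 reads in control and 92, 63 and 69 reads in NFL libraries. These reads gave 7.36, 6.28 and 6.14 CPM in control and 5.72, 3.66 and 3.91 CPM in NFL libraries. The groups did not overlap, but NFL replicate 1 sat closer to the control libraries than to the other 2 NFL libraries. The means were 6.59 ± 0.666 and 4.43 ± 1.12 CPM (SD, n = 3), the NFL mean being 67.2% of control. The log2 fold change of Lgals9 was -0.58 with an SE of 0.17, wider than that of the other members, and lay between -0.80 (without NFL replicate 1) and -0.46 with 1 library left out.

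Lgals3bp (ENSMUSG00000033880.11; chr11:118392751-118402092, minus strand) was at 193, 195 and 194 CPM in control and at 172, 179.6 and 181 CPM in NFL libraries. Again no NFL library reached the control range, although the distance was small. The means were 194 ± 1.12 and 177 ± 4.73 CPM (SD, n = 3), the NFL mean being 91.4% of control, with a log2 fold change of -0.13 (SE 0.034).

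Lgals1 and Lgals8 overlapped between the groups. Lgals1 (ENSMUSG00000068220.6; chr15:78926725-78930465, plus strand) was at 592, 535 and 554 CPM in control and 549, 573 and 558.5 CPM in NFL libraries, and its means of 560.4 ± 29.3 and 560.2 ± 12.2 CPM (SD, n = 3) lay closer together than the replicates of either group. Its log2 fold change was -0.0014 (SE 0.031), with a sign that changed as single libraries were left out (-0.03 to 0.04). Lgals8 (ENSMUSG00000057554.13; chr13:12439415-12464944, minus strand) was at 53.2, 55.5 and 58.3 CPM in control and 54.6, 52.1 and 50.1 CPM in NFL libraries. NFL replicate 1 exceeded control replicate 1, and the log2 fold change was -0.09 (SE 0.056). The end of Lgals8 overlaps Heatr1 on the other strand (268 CPM in control and 273 CPM in NFL libraries), and since the use of strand in counting is not given in the sources used here, reads in that stretch may belong to either gene. No other member overlaps an annotated gene.

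**Figure D1:**
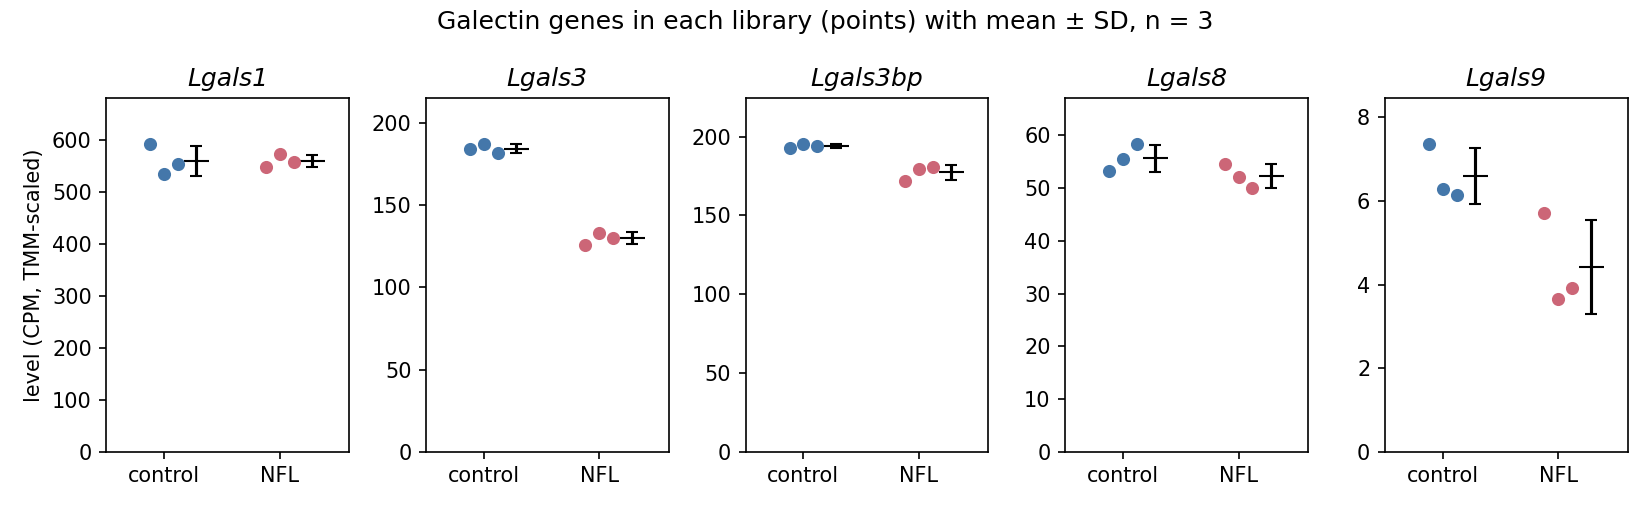
Level of the 5 genes in CPM (vertical axes from 0, a separate scale for each gene) in control and NFL libraries, with each point 1 library and the bars the mean ± SD (n = 3). Lgals3, Lgals3bp and Lgals9 show no overlap between the groups, whereas Lgals1 and Lgals8 overlap.

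Of the 14082 genes that passed the filter on low counts, 986 (7.00%) had an adjusted p under 0.05 in edgeR's quasi-likelihood test, 489 (3.47%) higher and 497 (3.53%) lower with NFL. Scaled by library size alone, the same test gave 372 higher and 600 lower, and it called 616 genes without NFL replicate 2 and 508 without NFL replicate 3. All 5 members passed the filter, and 3 of them, Lgals3, Lgals3bp and Lgals9, were among the 497. Lgals3 kept its adjusted p under 0.05 whichever library was left out. Lgals3bp did not without NFL replicate 1, and Lgals9 did not without control replicate 1, NFL replicate 2 or NFL replicate 3, nor in the DESeq2 Wald test. The CPM ranges of the groups did not overlap for 22.7% of genes tested, and for 11.2% they did so with NFL lower, which was the pattern of the same 3 members. Because the members were chosen with this contrast known, nothing is read from these counts.

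**Figure D2:**
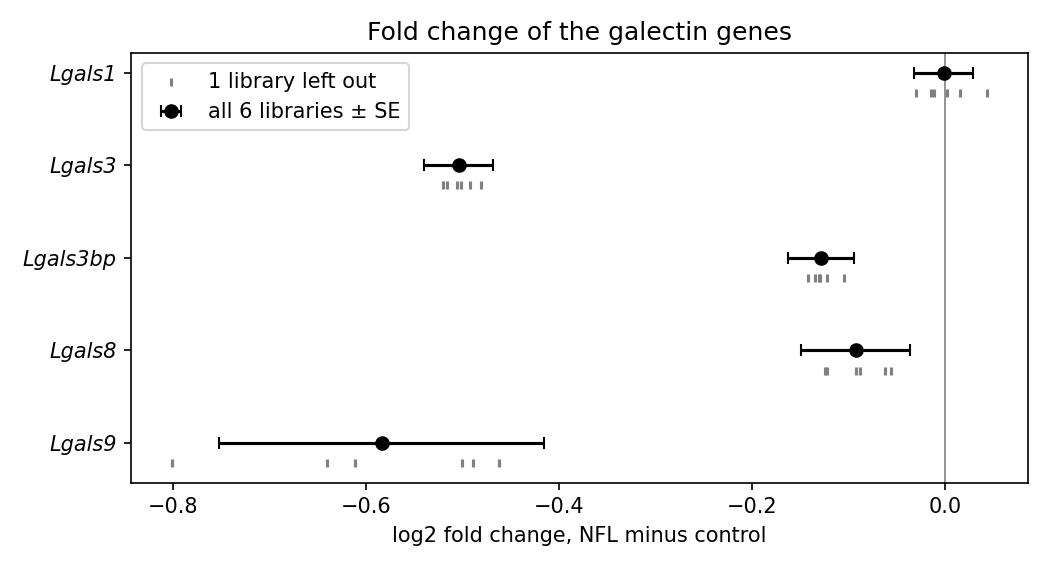
Log2 fold change (NFL minus control, horizontal axis) of each gene, with black points and bars for the fit to 6 libraries ± SE and grey ticks for the fits with 1 library left out. Lgals3 lies at -0.50 with ticks from -0.52 to -0.48, while the ticks of Lgals9 spread from -0.80 to -0.46 and those of Lgals1 lie on both sides of 0.

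Scaled per kilobase of merged exons, the 5 genes kept 1 order in both groups. In control libraries the levels were 621 ± 32.4 CPM per kb for Lgals1, 99.1 ± 1.44 for Lgals3, 68.2 ± 0.394 for Lgals3bp, 15.1 ± 0.693 for Lgals8 and 3.08 ± 0.312 for Lgals9 (SD, n = 3). In NFL libraries they were 620.4 ± 13.5, 69.8 ± 2.00, 62.3 ± 1.66, 14.2 ± 0.616 and 2.07 ± 0.525 CPM per kb in the same order. Neighbours in the order did not overlap in either group. Lgals3 and Lgals3bp came closest, since the lowest NFL library for Lgals3 was at 67.7 CPM per kb and the highest for Lgals3bp at 63.5. Scaling by the longest transcript left the order in control libraries as it was.

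**Figure D3:**
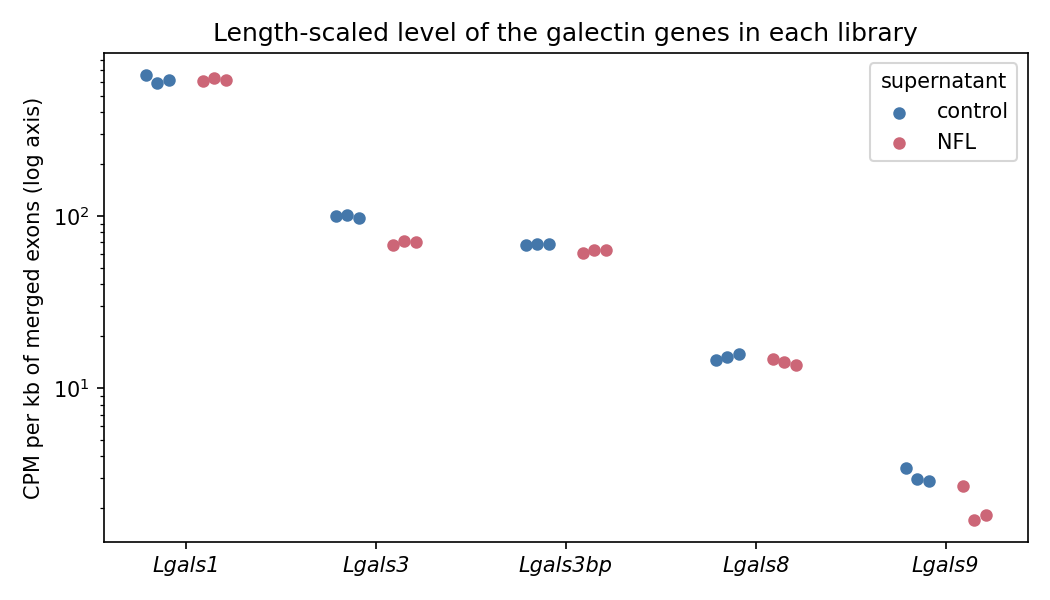
Level per kilobase of merged exons (CPM per kb, log axis) of each gene in the 3 control and 3 NFL libraries, 1 point per library. The order from Lgals1 to Lgals9 is the same in both groups, and Lgals3 moves from 99.1 towards the level of Lgals3bp, at 69.8 against 62.3 with NFL.

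The makeup of the 5 genes' reads differed accordingly. Their summed level was 1030, 979 and 994 CPM in control and 907, 942 and 923 CPM in NFL libraries. Lgals3 gave 18.4% ± 0.623 of that sum in control and 14.0% ± 0.145 in NFL libraries (SD, n = 3). The share of Lgals1 was 56.0% ± 1.44 against 60.6% ± 0.209, although its mean level was 560.4 against 560.2 CPM. Lgals3bp gave 19.4% and 19.2%, Lgals8 gave 5.57% and 5.66%, and Lgals9 gave 0.658% and 0.481%.

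The genes whose profile over the 6 libraries was most like that of Lgals3 were found by the root mean square difference of log2 CPM, each centred on its own mean. Cd53, a tetraspanin of leukocytes, was nearest, with a difference of 0.028 and levels of 75.3 ± 1.77 CPM in control and 51.3 ± 1.57 CPM in NFL libraries (SD, n = 3). Slc9a9, a sodium-proton exchanger of endosomes, followed at 0.046 (45.3 and 32.6 CPM). Otof, a calcium sensor of vesicle fusion, differed by 0.050 (6.85 and 5.08 CPM), Arsb, a lysosomal sulfatase, by 0.055 (113.5 and 81.3 CPM) and Frmd5, a FERM-domain protein, by 0.058 (35.6 and 26.03 CPM). Selection for likeness to Lgals3 fixed the direction of these 5 genes, so they are given without a test.

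Galectin-3 is abundant in macrophages, so markers of that cell type were read beside it. Of 20 macrophage markers, 15 had at most 3 counts in every library and 9 had 0 throughout, among them C1qa, C1qb, C1qc, Cd14, Mrc1 and Itgam. The summed level of the 20 ranged from 207 to 223 CPM in control and from 200.4 to 209 CPM in NFL libraries. Most of it was Fcer1g (185 and 182 CPM), which natural killer cells also express. Sums over marker lists were scaled to raw library totals, whereas single genes used TMM-scaled library sizes. Small gaps between the groups in these sums are therefore not read. Cd68 fell from 25.6 ± 1.43 to 21.5 ± 2.27 CPM (log2 fold change -0.26, edgeR adjusted p = 0.0494), and its adjusted p was 0.254 without control replicate 1, 0.370 without NFL replicate 2 and 0.111 without NFL replicate 3. It also missed the threshold without a filter (0.065), after thinning (0.124), in the DESeq2 Wald test (0.095) and in limma-voom (0.052). The part of Cd68-expressing cells in the Lgals3 difference was not tested. Natural killer markers summed to 1187 to 1243 CPM in control and 1141 to 1170 CPM in NFL libraries. Most of that sum was Nkg7 (733 CPM in control and 718 CPM in NFL libraries) and Eomes (439 and 426 CPM). The study counts Eomes among molecules of CD8+ T-cell exhaustion, so the sum is not read as natural killer content. Of the 10 markers, 6 had at most 3 counts in every library and 5 had 0 throughout, among them Ncr1 and Klrd1. Of the 3 tested of 10, 1 changed, the receptor gene Klrb1c, which fell from 31.7 ± 1.75 to 22.4 ± 0.322 CPM (log2 fold change -0.51, adjusted p = 2.4e-06). Of 10 B-cell markers 4 were tested and none was past the edgeR threshold, with sums of 17.2 to 18.1 CPM in control and 18.5 to 19.6 CPM in NFL libraries. Of 13 T-cell markers 11 were tested and 1 was lower (Cd3e). Over all genes tested, 7.00% were past the threshold and 3.53% were past it with NFL lower. With so few markers tested, nothing is read from these counts of calls.

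Of 7 other galectins and relatives listed, 6 had an identifier in the table and 3 passed the filter. None of these 3 was past the threshold, where 7.00% of all genes tested were. Lgalsl, a galectin-related protein, was at 75.4 ± 1.11 CPM in control and 79.3 ± 2.35 CPM in NFL libraries (log2 fold change 0.07, edgeR adjusted p = 0.451). Lgals4 was at 3.17 and 3.29 CPM (adjusted p = 0.932) and Grifin, a lens lectin relative, at 1.08 and 0.727 CPM (adjusted p = 0.484). Lgals7 had 21, 0 and 8 reads in control and 7, 4 and 7 reads in NFL libraries, and Lgals12 had 4, 0 and 4 against 0, 1 and 3 reads. Lgals2 had at most 3 reads in any library.

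A list of galectin partners, mainly surface glycoproteins, was read next, since such glycoproteins decide where a secreted galectin attaches. Of 40 partners listed, 39 had an identifier, 27 were tested, and 12 changed, 3 higher and 9 lower with NFL, where 7.00% of all genes tested changed (3.47% higher and 3.53% lower). The median log2 fold change of the 27 was -0.05, beside -0.00099 for all genes tested, and 20 of the 27 values were below 0. Leaving out 1 library gave 8 to 12 calls. This list and those that follow were chosen with earlier results of these data known. Their counts beside the share over all genes are therefore a description and no test of the lists.

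The partners were then read one by one. Cd7, a glycoprotein needed for galectin-1-induced death, fell from 13.8 ± 1.21 to 9.93 ± 0.613 CPM (log2 fold change -0.47, SE 0.11, edgeR adjusted p = 0.0036). Spn (CD43), a long mucin of the T-cell surface, fell from 108 ± 1.42 to 95.1 ± 4.74 CPM (-0.18, adjusted p = 0.0047), a call lost without NFL replicate 2 (adjusted p = 0.116). Cd3e fell from 61.1 ± 4.24 to 50.2 ± 0.960 CPM (-0.28, adjusted p = 5.7e-04). Ptprc (CD45), the phosphatase of all leukocytes, had 4, 3 and 4 reads in control and 3, 9 and 4 reads in NFL libraries, Cd44 had 1, 0 and 8 against 7, 4 and 3 reads, and Cd2 had none. These 3 were too scarce to be tested.

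The 3 partners that rose were Havcr2, Tnfrsf9 and Cd69. Havcr2 (TIM-3), an inhibitory receptor of exhausted T cells, was at 163, 156 and 161.5 CPM in control and 179.5, 189 and 181 CPM in NFL libraries, and rose (log2 fold change 0.19, SE 0.035, edgeR adjusted p = 1.2e-04). Tnfrsf9 (4-1BB), a costimulatory receptor, was at 416.5, 414 and 402 CPM in control and 518, 502 and 524 CPM in NFL libraries, and rose as well (0.33, SE 0.029, adjusted p = 2.1e-12). No library of either gene crossed to the other group. Cd69, an early activation marker that binds galectin-1, rose from 15.8 ± 0.981 to 20.8 ± 1.16 CPM (0.40, adjusted p = 0.0026). These 3 calls held with each library left out.

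The remaining partners that changed were lower. Lag3, an inhibitory receptor bound by galectin-3, fell from 116 ± 5.19 to 104 ± 5.58 CPM (log2 fold change -0.15, edgeR adjusted p = 0.017), but its adjusted p was 0.098 without control replicate 2, 0.239 without NFL replicate 2 and 0.052 without NFL replicate 3. Selplg (PSGL-1), the mucin-like ligand of selectins, fell from 50.9 ± 1.49 to 37.8 ± 5.61 CPM (-0.44, adjusted p = 6.8e-06). Itgb3, an integrin β chain, fell from 12.3 ± 0.958 to 9.11 ± 0.135 CPM (-0.44, adjusted p = 0.010), a call lost without control replicate 1 (adjusted p = 0.086). Cd47, the ligand of the phagocyte receptor SIRPα, fell from 642 ± 3.19 to 593 ± 12.7 CPM (-0.11, adjusted p = 0.0051), and its adjusted p was 0.074 without NFL replicate 2 and 0.060 without NFL replicate 3. Itgav, the integrin partner of Itgb3 (-0.17, adjusted p = 4.4e-05), and Basp1, a membrane-bound protein (-0.13, adjusted p = 0.023), completed the 12 and were named after their values were seen. The call of Basp1 was lost without control replicate 1 or without any 1 of the 3 NFL replicates. Itgb1, the common integrin β chain, was at 923 and 903 CPM (adjusted p = 0.59). On the other strand, Tnfrsf9 overlaps Camta1 (58.7 CPM in control and 52.7 CPM in NFL libraries), Cd3e overlaps Gm48719 (0.896 CPM in control) and Cd7 overlaps Gm11775, which was too scarce to be tested.

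The list of enzymes and carriers that build galectin ligands came next. All 39 had an identifier, 32 were tested and 3 changed, 1 higher and 2 lower, against 7.00% of all genes tested, with a median log2 fold change of -0.02. Without NFL replicate 3, 1 gene was called. Fut8, which adds the core fucose of N-glycans, was at 111, 116 and 113 CPM in control and 98.1, 90.4 and 94.9 CPM in NFL libraries, and fell with no overlap (-0.26, SE 0.042, edgeR adjusted p = 1.8e-05), a call that held with each library left out. B4galt1, which adds the galactose that galectins recognise, fell from 218 ± 5.14 to 199.8 ± 7.50 CPM (-0.12, adjusted p = 0.016), and its adjusted p was 0.061 without control replicate 2, 0.073 without NFL replicate 2 and 0.196 without NFL replicate 3. Slc35a3, a carrier of UDP-N-acetylglucosamine into the Golgi, rose from 134 ± 3.95 to 148 ± 2.85 CPM (0.13, adjusted p = 0.016), and its adjusted p was 0.073 without control replicate 3, 0.077 without NFL replicate 1 and 0.067 without NFL replicate 3.

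Mgat5, the branching enzyme whose product is the preferred N-glycan of galectin-3, was at 101 ± 3.36 CPM in control and 109 ± 1.30 CPM in NFL libraries (log2 fold change 0.10, edgeR adjusted p = 0.13). Mgat1, which starts the branching, was at 88.5 and 83.6 CPM (adjusted p = 0.354). On O-glycans, C1galt1, which makes core 1, was at 111 and 106 CPM (adjusted p = 0.465), Gcnt1, which makes core 2, at 48.5 and 49.6 CPM (adjusted p = 0.83), and St3gal1, which caps core 1 with sialic acid, at 5.46 and 4.62 CPM (adjusted p = 0.488). St6gal1, whose α2,6-linked sialic acid blocks galectin-1 binding, had 12, 8 and 5 reads in control and 0, 1 and 4 reads in NFL libraries and was too scarce to be tested.

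Inside the cell, galectin-3, galectin-8 and galectin-9 mark broken endolysosomes and recruit the autophagy machinery. Of 43 genes of that response, 41 were tested and 5 changed, 4 higher and 1 lower, against 7.00% of all genes tested, with a median log2 fold change of -0.01. Sqstm1 (p62), the autophagy receptor, was at 719, 818 and 738 CPM in control and 911, 826 and 846 CPM in NFL libraries, and rose (0.18, SE 0.033, edgeR adjusted p = 1.0e-04). Control replicate 2 lay close to NFL replicate 2 without overlap, and the DESeq2 Wald test gave an adjusted p of 0.106. Tax1bp1, another autophagy receptor, fell from 388 ± 4.58 to 358 ± 6.12 CPM (-0.12, adjusted p = 0.0067), a call lost without NFL replicate 1 (adjusted p = 0.059).

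Gabarapl1, an ATG8 protein of the autophagosome, rose from 68.8 ± 3.41 to 79.0 ± 2.55 CPM (log2 fold change 0.19, edgeR adjusted p = 0.0072), with an adjusted p of 0.058 without NFL replicate 1. Map3k7 (TAK1), a kinase upstream of NF-κB and AMPK, rose from 130.3 ± 6.05 to 146 ± 5.82 CPM (0.16, adjusted p = 0.0063), with 0.093 without NFL replicate 2. Yod1, a deubiquitinase of damaged lysosomes, rose from 85.8 ± 0.726 to 95.4 ± 2.82 CPM (0.15, adjusted p = 0.020), with 0.055 without control replicate 1 and 0.164 without NFL replicate 3. Trim16, a ubiquitin ligase that works with galectin-3, was at 35.1 ± 2.41 and 31.8 ± 0.947 CPM (adjusted p = 0.251). Sqstm1 and Yod1 overlap Mrnip (5.40 CPM in control) and Pfkfb2 (19.4 CPM) on the other strand.

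**Figure D4:**
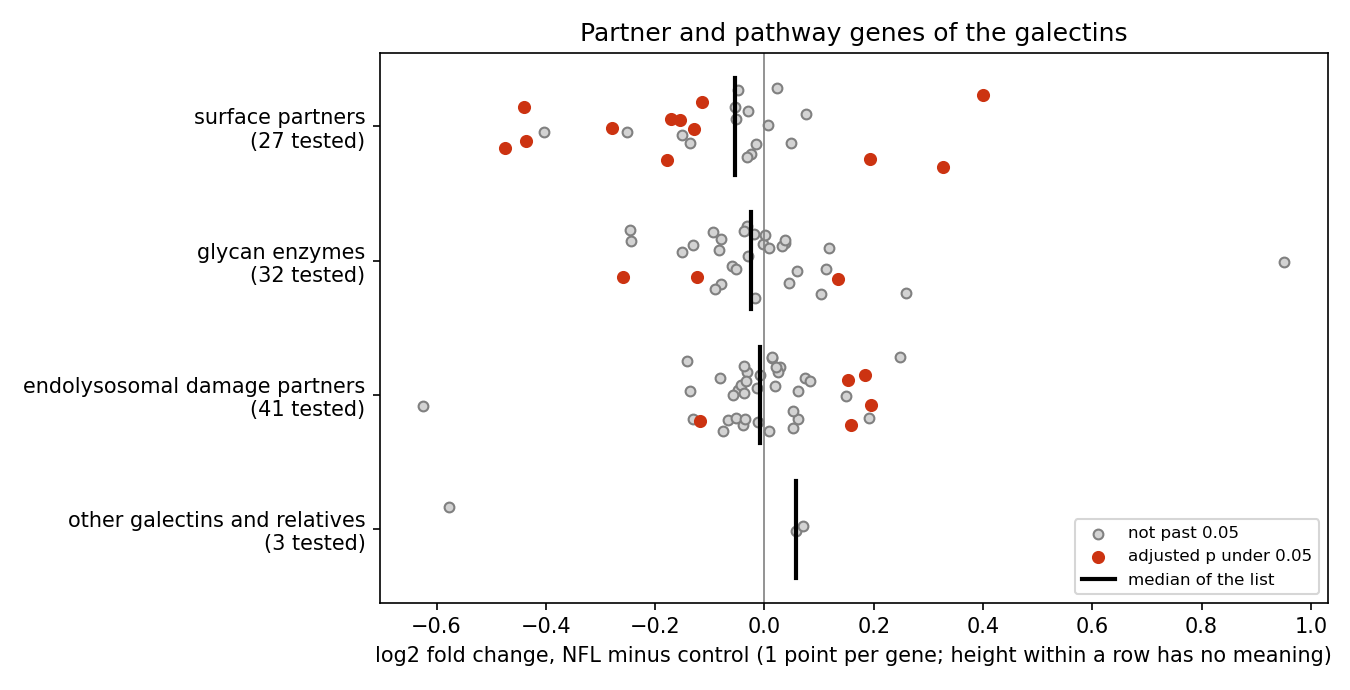
Log2 fold change (NFL minus control, horizontal axis) of the tested genes of 4 lists, 1 point per gene, red where the edgeR adjusted p was under 0.05, with a black bar at each list's median. Of the 27 surface partners 12 are red and 9 of those lie below 0, while 3 of 32 glycan enzymes, 5 of 41 endolysosomal genes and none of the 3 other galectins are red.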

How the data were processed

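RNA of 6 mouse T-cell libraries was poly(A)-selected and sequenced on an Illumina instrument. The authors deposited raw read counts per gene, with 1 column per library. The submitters' processing notes name GRCm39, R 4.2.1 and limma 3.54.2; for the aligner, the counting program, the annotation and strand use, nothing is given in the sources used here. The members and gene lists were chosen with earlier results of these data known.

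In R 4.3.3, low genes were removed by filterByExpr (2 groups, at least 10 counts, total of at least 15). edgeR 4.0.16 fitted the 14082 remaining genes after TMM scaling (glmQLFit, quasi-likelihood F test). P-values were adjusted over those genes by Benjamini-Hochberg, with a threshold of 0.05. Each SE was the absolute log2 fold change divided by the square root of the quasi-likelihood F statistic, and was not estimated separately. CPM used TMM-scaled library sizes. Scripts were tested on simulated data. Symbols covered 55141 identifiers. Coordinates and lengths came from GENCODE M21 (GRCm38), where 54349 of 55401 identifiers were identical, members included.

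Named genes were the members, up to 8 called genes of each list by absolute log2 fold change, preset partner genes and markers, and the 5 profiles nearest to Lgals3. Counts of any 2 libraries of a group differed by more than sampling noise. Alternatives were DESeq2 size factors, library size alone, no filter, at least 10 counts in every library, a replicate block, thinning to the smallest library, each library left out, DESeq2 1.42.0, limma-voom (limma 3.58.1) and the longest transcript.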

Additional observations from a re-analysis of the deposited data

How the results depend on the processing

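The log2 fold changes of the 5 members moved by less than the spread between replicates under all 70 alternatives run, with the sign of Lgals1 varying around 0. Lgals3 was past the threshold in 14 of 14 alternatives, Lgals3bp in 13 and Lgals9 in 10. The members were chosen with this contrast known, so these counts describe the fits and are no test of the members. Genes called over all genes numbered 986, and 508 (without NFL replicate 3) to 966 with 1 library left out, with 616 without NFL replicate 2. The other settings gave 731 (DESeq2 Wald test) to 1049. Called glycan enzymes numbered 1 to 3 with 1 library left out. Of 308 values of other named genes that were called, 277 kept their call and 31 lost it with the same sign. The cause was not tested.

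Replicate numbers are shared between groups in the labels, but deviations of same-numbered libraries correlated at only 0.0147, 0.0097 and 0.0053, so the numbers were not taken as pairs. Each library correlated best with its own number (others -0.0129 to 0.0011). The fit with the replicate block called 1049 genes.

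Depth limited genes under 3 counts per library (0.122 to 0.189 CPM), and the Lgals9 values rest on 63 to 181 reads.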
